A study of Mus musculus with 37 samples.

Results

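Granulocyte-rich and granulocyte-poor pancreatic tumours were set apart by S100a8, which encodes a calcium-binding protein abundant in neutrophils. Of the 37 libraries of the series, 17 carried a T cell phenotype label and at most 10 CPM (read counts scaled to library size) of 4 summed liver and heart genes, Myh6, Myh7, Cps1 and Serpina3k. These 17 tumours came from 15 clones and were ranked by the CPM of S100a8 out of total counts. The 6 highest, called rich here, were set against the 6 lowest, called poor, and 5 tumours lay between them. S100a8 chose the groups, so its own values are a description: 32.6, 39.6 and 92.7 CPM (lowest, median and highest) in rich tumours, against 5.43, 13.2 and 18.8 CPM in poor tumours. At the edge of the rich group, bulk_6419c1_no2 was at 32.6 CPM and the next tumour, bulk_2669c4_no4, at 30.7 CPM. At the edge of the poor group, bulk_6694c2_no2 was at 18.8 CPM and its neighbour, bulk_2669c4_no3, at 19.8 CPM.

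All the tumours grew under the skin of C57BL/6 mice from implanted clones of mouse pancreatic tumour cells, and were collected untreated 3 weeks after implantation. Each library was made from 500 ng of total RNA of 1 tumour. Among the rich tumours, bulk_6556c4_no2 and bulk_6620c1_no2 were labelled T cell high, bulk_6419c5_no2, bulk_6499c3_no2 and bulk_6419c1_no2 low, and bulk_7160c5_no2 intermediate. Among the poor tumours, bulk_2838c3_no2, bulk_6421c2_no2 and bulk_6555c3_no2 were labelled high, bulk_6694c2_no2 and bulk_6556c3_no2 low, and bulk_6422c5_no2 intermediate. The first part of a title is read here as the clone and its last number as the tumour, which the labels do not spell out. The 12 tumours therefore came from 12 clones, with 1 tumour per clone. By their names, rich bulk_6556c4_no2 and poor bulk_6556c3_no2 share a first number, as do bulk_6419c1_no2 and bulk_6419c5_no2, both rich, so these clones may not be independent lines. The sources used here do not say how the T cell phenotype was measured or which alleles the cells carry. Tumours are named by their sample titles, and the plots leave out the prefix bulk_.

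Neutrophils are short-lived granulocytes made in the bone marrow, where granulocyte colony-stimulating factor, the product of Csf3, drives their output through its receptor Csf3r. Chemokines such as Cxcl1, Cxcl2 and Cxcl5 draw them into tissue through the receptor Cxcr2, and their S100a8 and S100a9 proteins pair as calprotectin. In mouse models of pancreatic cancer, granulocytes drawn in through Cxcr2 are known for restraining T cells. In bulk tumour RNA, fewer cells of a type and less RNA per cell cannot be told apart. Because S100a8 formed the groups, the differences below measure which genes went with S100a8 in the same libraries. The other tumours of the same clones, described at the end, are samples that the ranking did not use.

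The label was read against its defining markers. S100a9 and Cxcr2 lay higher in every rich tumour than in any poor tumour. Ly6g, a surface marker of mouse neutrophils, was at 0.0718 to 1.61 CPM in rich tumours, against 0 to 0.280 CPM in poor tumours, and was too low to test. Of the granule genes of neutrophil precursors, Mpo, Elane and Camp were near 0, whereas Ltf and Lcn2, described below, were not. Mpo, which encodes myeloperoxidase, reached 0.150 CPM in rich and 0.229 CPM in poor tumours. Elane, which encodes neutrophil elastase, reached 0.174 CPM in rich and 0.140 CPM in poor tumours, and Camp, a granule antimicrobial peptide, 0.282 CPM in rich and 0.171 CPM in poor tumours. Keratinocytes can also express S100a8. The basal keratin genes Krt5 and Krt14 overlapped between the groups, at 0.0226 to 2.30 and 2.85 to 49.9 CPM in rich tumours, against 0.0286 to 3.18 and 1.61 to 60.9 CPM in poor tumours. Of 12 tested skin and squamous keratin genes, 0 had an unadjusted p under 0.05 in edgeR or in DESeq2, and their median log2 difference was 0.19.

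Total counts were 27.2 to 44.2 M in rich tumours (median 36.2 M), against 27.97 to 35.9 M in poor tumours (median 31.8 M). The summed liver and heart genes reached 0.538 CPM in rich and 0.501 CPM in poor tumours. Alb, the liver gene for serum albumin, was at 124 CPM in rich tumour bulk_6419c1_no2 and at no more than 16.7 CPM in the other ranked tumours. Over 16084 genes, edgeR's quasi-likelihood test called 0 (0%) at an adjusted p under 0.05, with a smallest adjusted p of 0.170. At an unadjusted p under 0.05, 1260 genes were higher (7.83%) and 787 lower (4.89%) in rich tumours. DESeq2 called 273 genes higher (1.7%) and 34 lower (0.211%) at the same adjusted threshold. In 130 genes (0.808%) every rich tumour lay above every poor tumour, and in 27 genes (0.168%) every rich tumour lay below. The median log2 difference over all genes was -0.04, with 7364 of 16084 above 0. Gene differences below are therefore values that edgeR did not call, given with their standard errors (SE).

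Mature neutrophil genes lay higher in the rich tumours. Of 32 genes measured, 27 passed the filter on low counts, 26 of these had a positive log2 difference, and the median was 1.38. At an unadjusted p under 0.05, 25 of the 27 were higher and 0 lower. Left out in turn, single tumours moved the median to between 1.18 and 1.55, the lowest without bulk_6556c4_no2, where 18 genes were counted. Every rich tumour lay above every poor tumour for 4 of them, S100a9, Csf3r, Cxcr2 and Trem1. DESeq2 called 11 of the 27 higher. The 2 genes outside that count of 25 were Mmp9, a gelatinase of neutrophil granules and macrophages, with a log2 difference of 0.26 (SE 0.50), and Itgb2l, an integrin subunit, at -0.25 (SE 0.46). The untested genes were Ly6g, Stfa1, Stfa2, Stfa3 and BC100530. The summed level of the list was 707, 864 and 1243 CPM in rich tumours, against 265, 419.7 and 595 CPM in poor tumours. The groups did not overlap in this sum. Endothelial, macrophage and red blood cell lists, described below, had medians of 0.76, 0.66 and 1.11 in the same comparison, and their part in the neutrophil differences was not tested.

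Among other members, Hdc, which makes histamine, was at 14.3, 30.5 and 59.3 CPM in rich tumours, against 3.91, 7.39 and 16.9 CPM in poor tumours, a log2 difference of 1.75 (SE 0.43). Slfn4, a myeloid member of the Schlafen family, was at 18.3 to 109.8 CPM in rich tumours, against 6.04 to 33.0 CPM in poor tumours, and differed by 1.80 (SE 0.47). Clec4e, a myeloid receptor for microbial lipids, differed by 1.49 (SE 0.40). In each of these 3 genes at least 1 rich tumour lay within the poor range.

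Csf3r (chromosome 4, 126024550 to 126044440, GRCm38) was at 55.9, 76.3 and 117 CPM in rich tumours, against 15.7, 24.8 and 43.4 CPM in poor tumours. The groups did not overlap, and the 5 tumours between them ranged from 29.0 to 76.5 CPM. The log2 difference of Csf3r was 1.58 (SE 0.25), with an adjusted p of 0.170 in edgeR and 1.51e-05 in DESeq2. Its highest level was in bulk_7160c5_no2 and not in bulk_6556c4_no2, the tumour highest in S100a8. Cxcr2 (chromosome 1, 74153989 to 74161246) was at 19.5, 23.3 and 33.3 CPM in rich tumours, against 4.23, 6.60 and 15.3 CPM in poor tumours. Its log2 difference was 1.59 (SE 0.30, edgeR adjusted p = 0.170), and the poor tumour nearest to the rich group was bulk_2838c3_no2. Without that tumour, Cxcr2 and Csf3r were called by edgeR, with log2 differences of 1.89 and 1.81 and adjusted p of 0.0162 and 0.0140.

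S100a9, the partner of S100a8 (chromosome 3, 90692632 to 90695721), was at 65.8, 87.9 and 230.2 CPM in rich tumours, against 11.998, 30.6 and 48.2 CPM in poor tumours. The log2 difference was 1.91 (SE 0.44, edgeR adjusted p = 0.199). Log2 S100a8 was also fitted in place of the groups, over all 17 tumours with those of 1 clone summed, which left 15 clones. There S100a9 changed by 1.04 log2 units per log2 unit of S100a8 (SE 0.06, edgeR adjusted p = 5.21e-08). In that fit edgeR called 4 genes, all rising with S100a8. They were S100a9, Mmp8, 1100001G20Rik and Foxd4. The slopes were 0.76 (SE 0.12) for the collagenase gene Mmp8 and 1.30 (SE 0.20) for 1100001G20Rik, the deposited symbol of Wfdc21. The forkhead gene Foxd4, whose mean was below 1 CPM in both groups, had a slope of 0.97 (SE 0.15). 1100001G20Rik and Foxd4 are named after their values were seen.

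Trem1, a receptor that amplifies inflammatory signals in myeloid cells, was at 20.5, 26.1 and 33.3 CPM in rich tumours, against 6.84, 9.98 and 15.6 CPM in poor tumours. The groups were separate, with a log2 difference of 1.29 (SE 0.22, edgeR adjusted p = 0.170). Retnlg, a resistin-like gene of mouse neutrophils, was at 2.73, 11.96 and 28.3 CPM in rich tumours, against 0.959, 3.01 and 7.18 CPM in poor tumours. The rich tumours bulk_7160c5_no2 and bulk_6419c1_no2 overlapped the poor group. It differed by 1.70 on the log2 scale (SE 0.64, edgeR adjusted p = 0.318). Mmp8 had 2.41 to 8.11 CPM in rich tumours, against 0.787 to 6.10 CPM in poor tumours, where bulk_2838c3_no2 held the highest value. Il1r2, a decoy receptor for IL-1, had a log2 difference of 1.06 (SE 0.43).

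**Figure D1:**
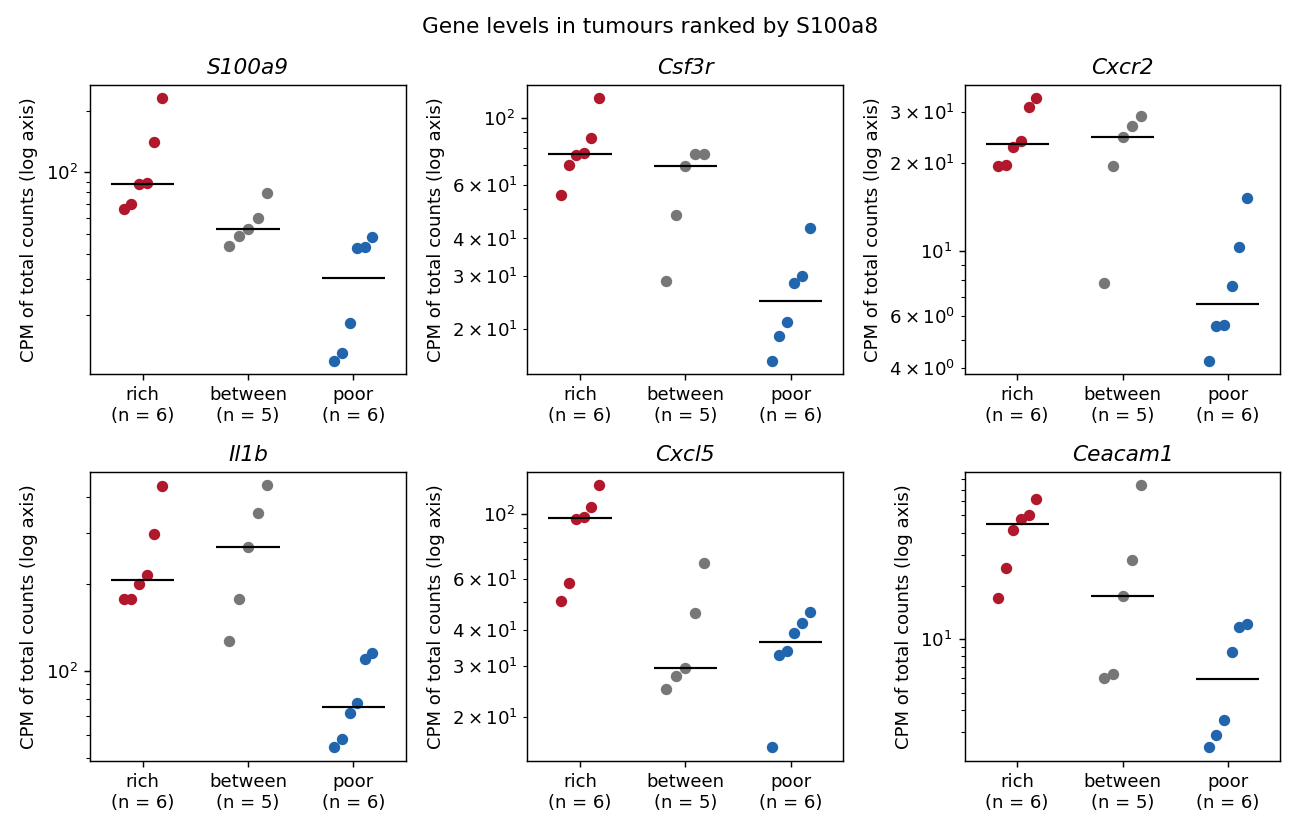
Levels of 6 genes in CPM of total counts (log axis) in rich tumours (n = 6), the tumours between (n = 5) and poor tumours (n = 6); points are tumours and lines are medians. Each rich point lies above every poor point in all 6 panels, while the tumours between reach into both groups for all but Il1b, where they stay above the poor tumours.

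Among 8 tested genes of immature granules, all 8 differences were positive, with a median of 0.91, and 3 had an unadjusted p under 0.05. These 3 were Ltf, Lcn2 and Ltb4r1, a receptor gene that is counted again among the attracting factors below. The median was 0.56 without bulk_7160c5_no2, and 0.28 with 7 of 8 positive for the top 8 against the bottom 8. Ltf, which encodes the iron-binding granule protein lactoferrin, was at 11.1, 23.4 and 51.0 CPM in rich tumours, against 0.804, 5.57 and 12.1 CPM in poor tumours. Only bulk_6421c2_no2, at 12.1 CPM, reached the rich range. It differed by 2.10 on the log2 scale (SE 0.54, edgeR adjusted p = 0.217), and bulk_6499c4_no2, ranked between the groups, held the most Ltf of the 17 tumours at 102.9 CPM. Lcn2, an iron-sequestering protein that epithelial cells also make, was at 22.3 to 207 CPM in rich tumours, against 6.99 to 58.3 CPM in poor tumours. Its log2 difference was 1.34 (SE 0.60) and 0.57 without bulk_6419c1_no2, the tumour with the residual Alb. Ngp, another granule gene, differed by 1.25 (SE 0.89).

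The promoters of Csf3r, Cxcr2 and Il1b are shown because these genes were among those with the smallest p in rich tumours and act in granulocyte output, entry and inflammation. The 250 bases before each start site are given 5′ to 3′ along the gene, from RefSeq on GRCm38.p6. Capitals mark matches on either strand to GAGGAA, a core bound by the myeloid factor PU.1, or to TTGCG, part of the site bound by C/EBP factors. The intervals were chr4:126024409-126024658 on the plus strand for Csf3r, chr1:74153744-74153993 on the plus strand for Cxcr2 and chr2:129371140-129371389 on the minus strand for Il1b. For Csf3r and Cxcr2 the RefSeq start site lies inside the GENCODE gene span given above, so the last bases of these windows fall within that span. In Csf3r this part runs from 126024550 and holds both marked matches, whereas the match in Cxcr2 lies before its span.
Csf3r: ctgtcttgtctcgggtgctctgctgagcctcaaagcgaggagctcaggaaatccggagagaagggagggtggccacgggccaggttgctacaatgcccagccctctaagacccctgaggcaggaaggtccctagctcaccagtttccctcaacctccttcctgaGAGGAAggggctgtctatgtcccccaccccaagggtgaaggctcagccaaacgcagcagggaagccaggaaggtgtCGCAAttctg
Cxcr2: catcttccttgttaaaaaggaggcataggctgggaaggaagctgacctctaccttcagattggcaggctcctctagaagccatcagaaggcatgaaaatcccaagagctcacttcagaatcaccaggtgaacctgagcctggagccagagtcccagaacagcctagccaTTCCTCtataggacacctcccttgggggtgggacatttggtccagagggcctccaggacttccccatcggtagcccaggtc
Il1b: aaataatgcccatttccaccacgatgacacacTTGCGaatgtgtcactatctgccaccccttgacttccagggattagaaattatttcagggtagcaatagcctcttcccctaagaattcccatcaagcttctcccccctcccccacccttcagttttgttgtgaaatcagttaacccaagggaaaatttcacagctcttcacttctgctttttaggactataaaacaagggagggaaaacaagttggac
The Csf3r promoter held both motifs, that of Cxcr2 only GAGGAA and that of Il1b only TTGCG. Of 32851 promoters of this length, 23.3% held GAGGAA, 14.5% TTGCG and 3.0% both. The 2 motifs do not overlap in Csf3r, and a match is a description of the sequence, not a measured binding site.

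Genes for factors that attract granulocytes or raise their number, listed together with receptors and enzymes of their guidance, also lay higher. Of 18 tested, 17 had a positive difference, with a median of 0.97, and 12 had an unadjusted p under 0.05. Among these, the 13 secreted factors were all positive, with a median of 1.18, and 8 of them passed that unadjusted threshold. Of the 5 receptors and enzymes, which granulocytes can carry themselves, 4 passed it. DESeq2 called 5 of the 18. Cxcl5 (chromosome 5, 90759360 to 90761624), a Cxcr2 ligand, was at 50.3, 97.3 and 126 CPM in rich tumours, against 15.7, 36.4 and 46.0 CPM in poor tumours. It was the only gene of this list whose groups did not overlap, with a log2 difference of 1.32 (SE 0.26, edgeR adjusted p = 0.170). The tumours between ranged from 24.9 to 67.7 CPM of Cxcl5.

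Csf3 (chromosome 11, 98701263 to 98703629) was a low transcript, at 1.51, 2.70 and 11.1 CPM in rich tumours, against 0.223, 0.852 and 1.54 CPM in poor tumours. Only the rich tumour bulk_6419c5_no2 and the poor tumour bulk_6555c3_no2 crossed. The log2 difference was 2.20 (SE 0.58, edgeR adjusted p = 0.217), and 1.58 without bulk_7160c5_no2, which held the highest level. Csf1, the macrophage growth factor, had a log2 difference of 0.70 (SE 0.21). Csf2, which encodes GM-CSF, was set by a few tumours: 20.5 CPM in rich bulk_6556c4_no2 and 14.1 CPM in poor bulk_6694c2_no2, with medians of 1.61 CPM in rich and 1.47 CPM in poor tumours. Its log2 difference was 0.38 (SE 0.96) and turned to -0.97 without bulk_6556c4_no2.

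Cxcl1 did not separate the groups. It was at 9.08, 10.45 and 20.4 CPM in rich tumours, against 1.14, 1.72 and 35.1 CPM in poor tumours. All 6 rich tumours lay above 4 poor tumours, but the poor tumours bulk_6556c3_no2 and bulk_6694c2_no2, at 35.1 and 28.3 CPM, lay above all rich tumours. The log2 difference was 0.13 (SE 0.84, edgeR adjusted p = 0.962), and was 0.93 without bulk_6556c3_no2 and -0.11 without bulk_6555c3_no2. Cxcl2 and Cxcl3, Cxcr2 ligands that lie on chromosome 5 near Cxcl1 and Cxcl5, had log2 differences of 1.24 (SE 0.49) and 1.18 (SE 0.66). For Cxcl3, the value was 2.02 without bulk_6694c2_no2 and 0.59 without bulk_6556c4_no2.

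The 5 receptors and enzymes already counted in that list belong to the leukotriene and complement routes. C5ar1, the complement C5a receptor, differed by 0.79 (SE 0.20), Ltb4r1, a leukotriene B4 receptor, by 0.998 (SE 0.30), and Alox5ap, an activator of leukotriene synthesis, by 0.95 (SE 0.23). Lta4h, which makes leukotriene B4 in many cell types, was at 58.5 to 83.6 CPM in rich tumours, against 49.7 to 85.8 CPM in poor tumours, a log2 difference of -0.01 (SE 0.14).

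Inflammatory genes of the IL-1 and NF-kB routes had a median log2 difference of 0.69 over 25 tested, 23 of them positive, and 12 had an unadjusted p under 0.05. Il1b (chromosome 2, 129364570 to 129371139), the cytokine IL-1 beta, was at 178, 207 and 438 CPM in rich tumours, against 54.3, 74.8 and 116 CPM in poor tumours. The groups did not overlap, with a log2 difference of 1.59 (SE 0.28, edgeR adjusted p = 0.170). Above the median rich tumour lay 3 of the 5 tumours between, and the highest, bulk_2669c4_no3, held 442 CPM. Cd14, a co-receptor for bacterial lipopolysaccharide on myeloid cells, was at 266, 303 and 365 CPM in rich tumours, against 154, 195 and 212 CPM in poor tumours. This was a narrow spread, and the log2 difference was 0.69 (SE 0.13, edgeR adjusted p = 0.170). Relb, an NF-kB subunit, also did not overlap between the groups, with a difference of 0.42 (SE 0.12).

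Acod1, which makes itaconate in activated myeloid cells, had the largest difference of this list, 2.23 (SE 0.67). Nlrp3, an inflammasome sensor, differed by 1.43 (SE 0.38), Osm, the cytokine oncostatin M, by 1.55 (SE 0.34), and Nos2, the inducible nitric oxide synthase, by 1.42 (SE 0.41). Other members of the list had values near 0: Il1r1, the signalling IL-1 receptor, differed by -0.07 (SE 0.30), Tlr4 by 0.02 (SE 0.25) and Nfkb2 by -0.07 (SE 0.13). DESeq2 called 8 of the 25 higher and 0 lower.

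The remaining genes with the smallest p on the higher side included several that are not granulocyte markers. Ceacam1 (chromosome 7, 25461707 to 25477603), an adhesion molecule of epithelial cells, endothelium and granulocytes, was at 16.99, 44.6 and 62.0 CPM in rich tumours, against 2.45, 5.97 and 12.3 CPM in poor tumours. The log2 difference of 2.55 (SE 0.46, edgeR adjusted p = 0.170) was the largest among the 20 genes chosen by p. The highest Ceacam1 of the 17 tumours, 74.4 CPM, was in bulk_7160c2_no2, ranked between. Lrg1, a secreted glycoprotein made by neutrophils, endothelium and liver, was at 25.6 to 53.1 CPM in rich tumours, against 12.7 to 20.04 CPM in poor tumours, with a difference of 1.21 (SE 0.21). Themis2, a signalling adaptor of myeloid and B cells, differed by 1.25 (SE 0.23), and Entpd1, which encodes the ectonucleotidase CD39, by 0.95 (SE 0.17). For these 3 genes too every rich tumour lay above every poor tumour.

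Endothelial genes also lay higher. Of 13 tested, 11 were positive with a median of 0.76, 10 had an unadjusted p under 0.05, and DESeq2 called 7. Their summed level was 424 to 700.5 CPM in rich tumours, against 179.5 to 382 CPM in poor tumours, without overlap. Plvap (chromosome 8, 71497765 to 71511752), which forms the diaphragms of fenestrated vessels, was at 72.3, 88.8 and 113 CPM in rich tumours, against 27.4, 48.7 and 58.0 CPM in poor tumours. Its log2 difference was 0.89 (SE 0.17, edgeR adjusted p = 0.170). Pecam1, the platelet endothelial adhesion molecule, differed by 0.67 (SE 0.17) without overlap, and Vwf, von Willebrand factor, by 1.14 (SE 0.29). Sele and Selp, the endothelial selectins that leukocytes roll on, differed by 0.22 (SE 0.68) and -0.20 (SE 0.54), both well within their error. The list's median stayed between 0.64 and 0.82 when each tumour was left out in turn, but was 0.42 when tumours were ranked by S100a9 and 0.44 for the top 3 against the bottom 3. Ranking by S100a9 moved rich bulk_7160c5_no2 and poor bulk_6694c2_no2 to the tumours between. In their places, bulk_2669c4_no4 became rich and bulk_7160c2_no2 poor.

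**Figure D2:**
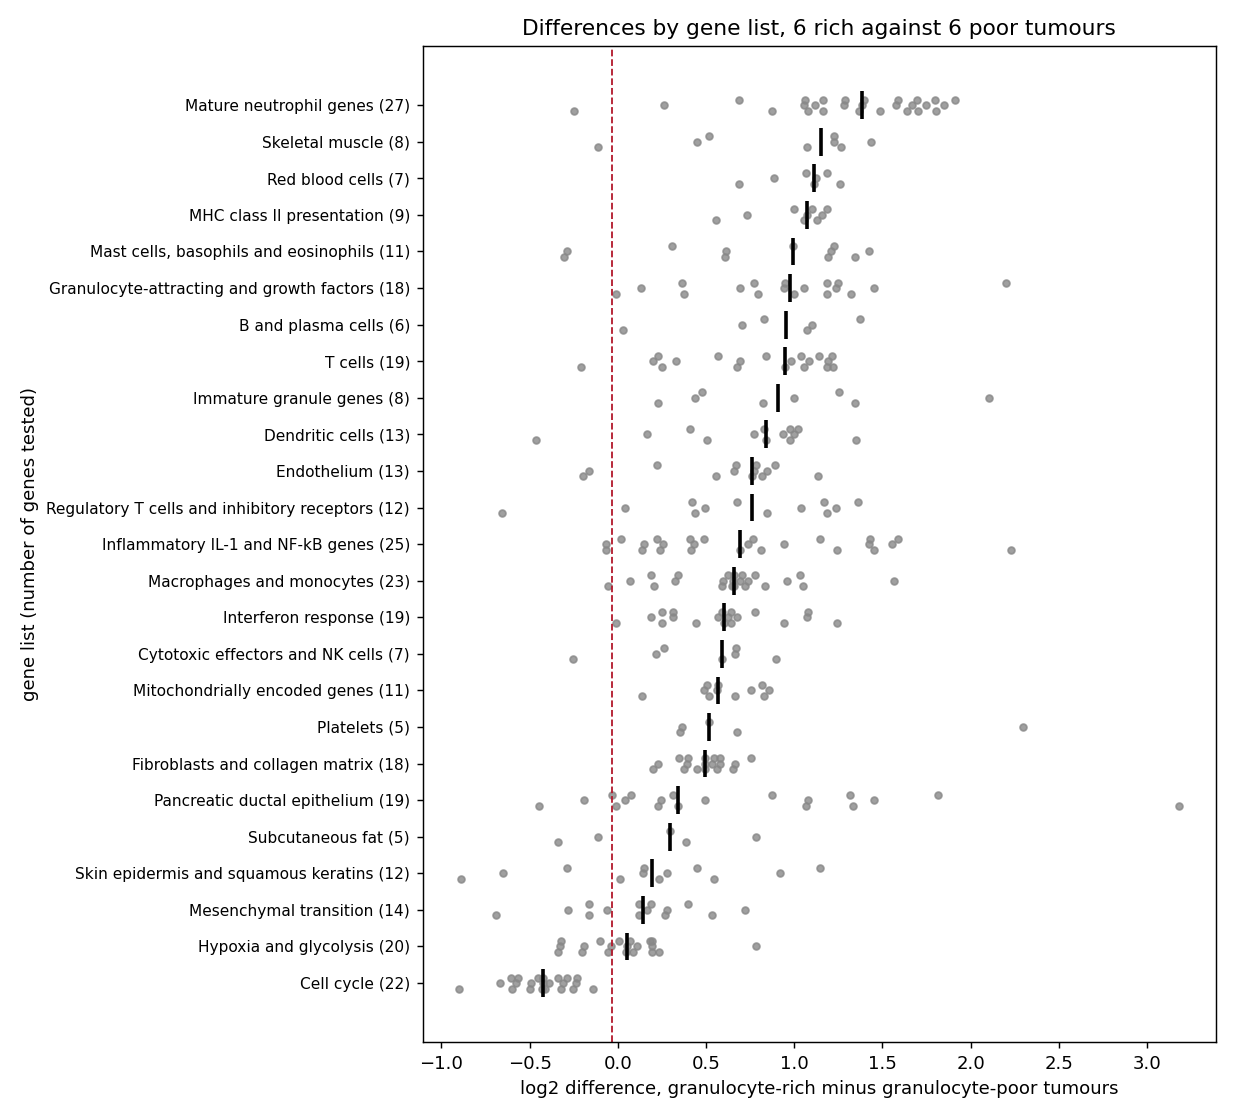
Log2 differences (rich minus poor tumours, 6 against 6) of the tested genes in 25 gene lists; grey points are genes, black bars the median of a list and the dashed line the median of all 16084 genes, -0.04. The mature neutrophil list has the highest median, 1.38, and the cell cycle list, at -0.42, is the lowest.

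Blood cells other than granulocytes were read from their own markers. The summed red blood cell genes were at 284, 1031 and 2242 CPM in rich tumours, against 68.7, 103 and 2673 CPM in poor tumours. In 11 of the 12 tumours this sum divided the groups, since bulk_2838c3_no2 held the 2673 CPM and the other poor tumours at most 122 CPM. Hbb-bs, a beta globin, was at 168.6 to 1386 CPM in rich tumours, at 96.8 to 152 CPM in the tumours between, and at 41.6 to 79.0 CPM in 5 poor tumours, with 1483 CPM in bulk_2838c3_no2. Its log2 difference was 1.11 (SE 0.91, edgeR adjusted p = 0.618). Without bulk_2838c3_no2 it was 3.47 (SE 0.47, adjusted p = 0.0162), and edgeR called 8 genes. Among them were the globin genes Hbb-bs, Hbb-bt, Hba-a1 and Hba-a2, the haem synthesis gene Alas2, Cxcr2 and Csf3r. Near-identical globin genes share reads, so their split is uncertain. With log2 S100a8 fitted in place of the groups, 8 of 8 red blood cell genes rose at an unadjusted edgeR p under 0.05. Their median slope was 1.28, and 0 were called. In that fit the mature neutrophil genes had a median slope of 0.72, with 23 of 28 at that threshold. The platelet gene Pf4 was at 13.9 to 47.7 CPM in rich tumours, against 12.8 to 39.6 CPM in poor tumours, and of 5 tested platelet genes 2 had an unadjusted p under 0.05, Clec1b at 2.30 (SE 0.62) and Gp1bb at 0.68 (SE 0.30).

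Mast cell and eosinophil genes had a median of 0.99 over 11 tested, with 5 at an unadjusted p under 0.05 and 0 called by DESeq2. Tpsb2, a mast cell tryptase, was at 13.3, 22.003 and 39.3 CPM in rich tumours, against 2.59, 7.68 and 19.4 CPM in poor tumours, a difference of 1.34 (SE 0.43). Siglec5, the deposited symbol for the eosinophil lectin Siglecf, differed by 1.42 (SE 0.55), whereas Mcpt8, a basophil protease, differed by -0.31 (SE 0.91).

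Macrophage and monocyte genes had a median of 0.66 over 23 tested, with 22 positive and 11 at an unadjusted p under 0.05. In 0 of the 23 did every rich tumour lie above every poor tumour, and DESeq2 called 0. Csf1r, the receptor that macrophages depend on, was at 134, 170.0 and 498 CPM in rich tumours, against 67.9, 125 and 158 CPM in poor tumours, a difference of 0.96 (SE 0.33). C1qa, a complement gene of tissue macrophages, differed by 0.70 (SE 0.32), Ly6c2 and Ccr2, markers of inflammatory monocytes, by 1.57 (SE 0.45) and 1.03 (SE 0.44), and Arg1, arginase 1, by 0.72 (SE 0.25). Mrc1, the mannose receptor, differed by 0.07 (SE 0.25). The rich tumour bulk_7160c5_no2 held the highest Csf1r, Ccr2 and Arg1, and the list's median was 0.42 without it. Ranked by S100a9, the median of the list was 0.16, with 0 of its genes at an unadjusted p under 0.05.

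Antigen presentation and lymphocyte genes rested on that tumour more strongly. The 9 genes of MHC class II presentation were all positive with a median of 1.07, and 7 had an unadjusted p under 0.05. H2-Ab1, a class II beta chain, was at 182, 269 and 1059.8 CPM in rich tumours, against 84.9, 179 and 247 CPM in poor tumours, so 3 rich tumours lay within the poor range. Without bulk_7160c5_no2 the median of the list was 0.53 and 0 of 9 had an unadjusted p under 0.05. Ranked by S100a9 the median was 0.09, but that ranking also takes bulk_7160c5_no2 out of the rich group. It puts bulk_7160c2_no2, with a class II sum of 3034 CPM, among the poor tumours. For lists that rest on bulk_7160c5_no2, the S100a9 ranking is therefore not a check separate from leaving it out. The T cell list had a median of 0.95 over 19 genes, with 3 at an unadjusted p under 0.05. Its median was 0.04 without bulk_7160c5_no2 and -0.14 ranked by S100a9. Cd3e, a chain of the T cell receptor complex, was at 0.294, 0.904 and 6.74 CPM in rich tumours, against 0.175, 0.783 and 1.75 CPM in poor tumours. Cd8a, which marks killer T cells, differed by -0.21 (SE 0.95), with 4.199 CPM in poor tumour bulk_6421c2_no2. The list of cytotoxic effectors and NK cells had a median of 0.59 over 7 genes and -0.14 without bulk_7160c5_no2.

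Regulatory T cell and inhibitory receptor genes had a median of 0.76 over 12, and 0.22 without bulk_7160c5_no2. Foxp3, the factor that defines regulatory T cells, was at 8.23 CPM in that tumour and at medians of 0.952 CPM in rich and 0.795 CPM in poor tumours. Cd274, which encodes the inhibitory ligand PD-L1, was less dependent on it. It was at 19.0, 32.8 and 57.5 CPM in rich tumours, against 6.79, 16.2 and 23.6 CPM in poor tumours, a difference of 1.19 (SE 0.35, edgeR adjusted p = 0.236) that stayed at 0.97 or more in each leave-one-out fit. Ranked by S100a9, the median of the regulatory list was -0.14. Dendritic cell genes had a median of 0.84 over 13, which was 0.32 without bulk_7160c5_no2 and 0.065 ranked by S100a9. B and plasma cell genes had one of 0.95 over 6, and 0.63 ranked by S100a9. Interferon response genes had a median of 0.60 over 19, with 4 at an unadjusted p under 0.05, and a median of 0.075 ranked by S100a9. Of these, Irf7, a regulator of interferon genes, differed by 1.24 (SE 0.32) and was called by DESeq2.

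**Figure D3:**
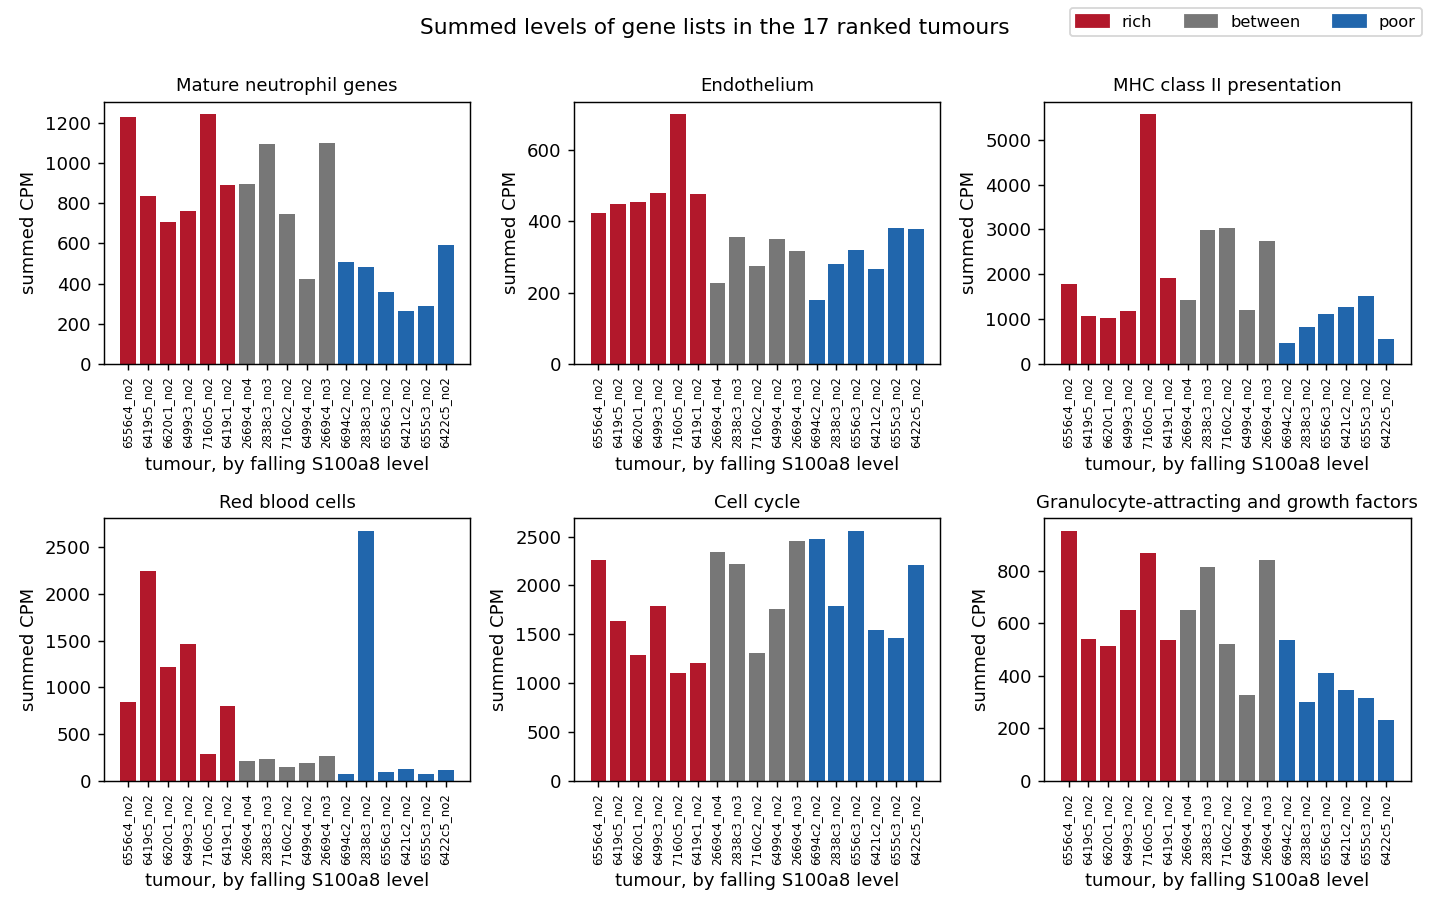
Summed CPM of 6 gene lists in each of the 17 ranked tumours, in order of falling S100a8; red bars are rich, grey between and blue poor tumours. The endothelial sums of the 6 rich tumours lie above all others, bulk_7160c5_no2 stands out in class II genes, and bulk_2838c3_no2 is the only poor tumour with a high red blood cell sum.

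High and low T cell labels occurred in both groups. Among labels of high or low, rich tumours had 2 high and 3 low and poor tumours 3 high and 2 low (Fisher's exact test, two-sided, p = 1). Ranked by S100a9, rich tumours had 2 high and 4 low and poor tumours 4 high and 1 low (Fisher's exact test, two-sided, p = 0.242). With so few tumours these tests do not show that the labels were alike. Ranked by S100a8, each group held 1 tumour labelled intermediate. Ranked by S100a9, the rich group held 0 and the poor group 1. With the label as a term in the fit, edgeR again called 0 genes.

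Cell cycle genes lay lower in the rich tumours. All 22 tested had a negative difference, with a median of -0.42, and 6 had an unadjusted p under 0.05. None was called by edgeR or DESeq2. Ccnb2, a mitotic cyclin, was at 24.1, 34.2 and 53.5 CPM in rich tumours, against 37.2, 57.7 and 67.5 CPM in poor tumours. The groups overlapped, and the log2 difference was -0.67 (SE 0.22, edgeR adjusted p = 0.257). Ccnb1 differed by -0.90 (SE 0.34), Kif11, a spindle motor, by -0.61 (SE 0.26) and Mki67, the proliferation marker, by -0.43 (SE 0.23). The number of the 22 at an unadjusted p under 0.05 ranged from 1 without bulk_6556c3_no2 to 15 without bulk_6556c4_no2. The median was -0.05 when tumours were ranked by S100a9 and also for the top 3 against the bottom 3, so it depended on how the groups were drawn.

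The 10 genes with the smallest p on the lower side were not called by edgeR, and all 10 were called by DESeq2. Over all 16084 genes, DESeq2 called 34 lower (0.211%). Because the 10 were picked by p in the same libraries, their DESeq2 calls are not separate support. Osbpl3 (chromosome 6, 50293330 to 50456201), which encodes an oxysterol-binding protein relative, was at 86.1, 116 and 139 CPM in rich tumours, against 166, 183 and 203 CPM in poor tumours. The groups did not overlap, with a log2 difference of -0.70 (SE 0.15, edgeR adjusted p = 0.170). Aox1, aldehyde oxidase 1, was at 12.96, 14.6 and 22.2 CPM in rich tumours, against 23.7, 29.7 and 44.0 CPM in poor tumours, a difference of -0.97 (SE 0.20, edgeR adjusted p = 0.170). Sms, spermine synthase, differed by -0.95 (SE 0.23) and Rpl22l1, a relative of ribosomal protein L22, by -0.93 (SE 0.22). The other 6 ranged from -0.71 for Cdc14b, a phosphatase, to -0.52 for Cdk7, a kinase of the cell cycle and of transcription. Mbtps2, a protease that activates sterol-regulatory factors, Aggf1, Arid4b and Vwa8 lay between them.

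Genes of the tumour cells and their matrix were read next. The pancreatic ductal list had a median of 0.34 over 19 genes, which was 0.92 without bulk_6421c2_no2, 0.19 without bulk_6499c3_no2 and -0.031 ranked by S100a9. Krt19, a ductal keratin, was at 761, 1374 and 1940.5 CPM in rich tumours, against 749, 1236 and 1712.5 CPM in poor tumours, a difference of 0.25 (SE 0.24). Epcam, an epithelial adhesion molecule, spread over 44.8 to 903 CPM in rich tumours, against 15.7 to 446 CPM in poor tumours, and differed by 0.87 (SE 0.91), with 0.16 without bulk_7160c5_no2 and 1.503 without bulk_6421c2_no2. Spint1, an epithelial protease inhibitor, had the smallest p of the list, with a difference of 1.45 (SE 0.43). Agr2, a mucin-folding enzyme, and Cftr, the chloride channel of ducts, had larger and less certain differences of 3.18 (SE 1.36) and 1.82 (SE 0.72). Mesenchymal transition genes had a median of 0.14 over 14, where Snai1, a repressor of epithelial genes, differed by 0.72 (SE 0.25).

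Fibroblast and collagen genes were all positive, 18 of 18, with a median of 0.49 that was 0.21 without bulk_7160c5_no2. This also depended on the groups: 11 of 18 were positive with a median of 0.037 ranked by S100a9, and 6 of 18 with -0.023 for the top 3 against the bottom 3. Hypoxia and glycolysis genes had a median of 0.05 over 20, with 0 at an unadjusted p under 0.05 in edgeR and 1 in DESeq2. Ranked by S100a9, all 20 were positive, with a median of 0.39. Their highest member was Adm, which encodes the vessel-dilating peptide adrenomedullin, at 0.78 (SE 0.38). Mitochondrially encoded genes had a median of 0.57 over 11 and 0.11 without bulk_6620c1_no2, with 0 at an unadjusted p under 0.05 in edgeR and DESeq2. Skeletal muscle genes were low but higher in rich tumours, with a median of 1.15 over 8, among them Actn3, a fast-fibre alpha actinin, at 0.630 to 3.83 CPM in rich tumours, against 0.490 to 0.926 CPM in poor tumours. Whether muscle in the sample had a part in other results was not tested. Subcutaneous fat genes had a median of 0.30 over 5.

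**Figure D4:**
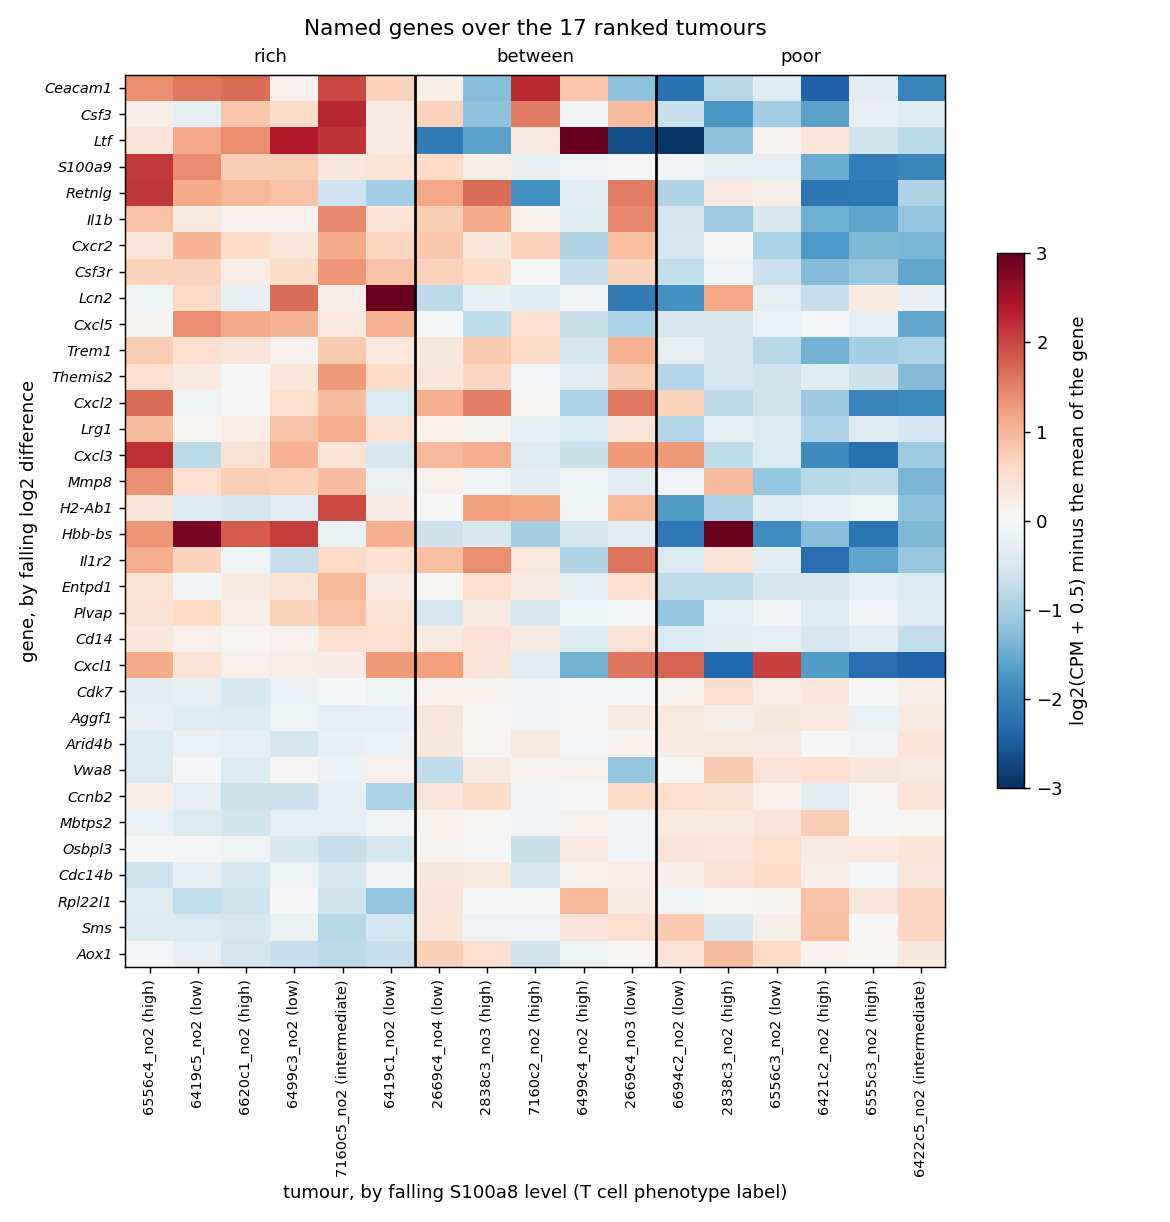
Levels of 34 named genes in the 17 ranked tumours as log2(CPM + 0.5) minus the mean of the gene; columns run from the highest to the lowest S100a8, lines part the rich, between and poor tumours, and rows run from the highest to the lowest log2 difference. Rich columns are red and poor columns blue for Csf3r, Cxcr2, Il1b and Trem1, except for Cxcr2 in bulk_2838c3_no2, which is near the mean. Cxcl1 is high in the poor tumours bulk_6556c3_no2 and bulk_6694c2_no2, and Hbb-bs in the poor tumour bulk_2838c3_no2.

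The genes whose levels were most like S100a8 over the 17 tumours of 15 clones were S100a9 (Spearman's rho 0.97), Ppp1r3b (0.86), Phospho1 (0.84), Bloc1s3 (0.82) and Gpr97 (0.81). Ppp1r3b, a glycogen-targeting phosphatase subunit, was at 48.4 to 64.2 CPM in rich tumours, against 20.3 to 37.8 CPM in poor tumours. Gpr97, the deposited symbol of an adhesion receptor of granulocytes, was at 5.52 to 9.70 CPM in rich tumours, against 1.69 to 4.69 CPM in poor tumours. Since these genes were picked for the likeness, their values are a description.

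The other tumours of the 12 clones gave a comparison that the ranking had not used. Each clone had 1 such tumour, numbered 1, and all 12 libraries held liver and heart RNA, at 258 to 5894 CPM of the 4 summed genes for rich clones, against 290 to 5922 CPM for poor clones. Their total counts were 7.39 to 102.3 M for rich clones, against 18.2 to 44.6 M for poor clones. In 6 of the 12 the sum was over 65% of the highest library: bulk_6419c5_no1, bulk_6556c4_no1 and bulk_6620c1_no1 of rich clones and bulk_2838c3_no1, bulk_6555c3_no1 and bulk_6694c2_no1 of poor clones. These 6 were alike across clones. The chi-squared value per gene was 5.89 to 36.3 over their 15 pairs, against 53.7 to 637 over the 51 other pairs. This value grows with read depth, and the 2 ranges are not matched for depth. The pair at 637 held bulk_7160c5_no1, the deepest of these libraries at 102.3 M counts. Whether the 6 alike libraries were mixed or mislabelled was not tested, so the clone behind each is uncertain, and results are given with and without them. Leaving them out kept only bulk_6419c1_no1, bulk_6499c3_no1 and bulk_7160c5_no1 of rich clones. Of poor clones it kept only bulk_6421c2_no1, bulk_6422c5_no1 and bulk_6556c3_no1. Among those kept, bulk_6499c3_no1 had 7.39 M counts and 58.5% of the highest liver and heart level.

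Over 16866 genes, edgeR called 0 (0%) between the other tumours of rich and poor clones, with a smallest adjusted p of 0.9997, and DESeq2 called 0. At an unadjusted p under 0.05, 253 genes were higher (1.5%) and 234 lower (1.39%). S100a9 was at 20.9, 60.2 and 197 CPM in tumours of rich clones, against 10.7, 32.4 and 197 CPM in tumours of poor clones. The groups overlapped throughout, since bulk_6422c5_no1, from the clone with the lowest S100a8 in the ranking, had 197 CPM. The log2 difference was 0.33 (SE 0.71), and 0.38 (SE 0.92) without the 6 alike libraries. It was 1.43 without bulk_6422c5_no1 and -0.22 without bulk_6419c1_no1.

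Of 27 tested mature neutrophil genes, 24 had a positive difference in the other tumours, with a median of 0.33, and 1 had an unadjusted p under 0.05. Without the alike libraries, 25 of 27 were positive, the median was 0.56 and none passed an unadjusted p of 0.05. Over all genes 8038 of 16866 were positive, with a median of -0.01, and without the alike libraries 8852 of 16629, with a median of 0.034. The neutrophil median was not the largest in the other tumours. Larger list medians there included 0.87 for MHC class II presentation (9 of 9 positive), 0.52 for fibroblasts (18 of 18) and 0.47 for attracting factors (16 of 19). The mast cell and eosinophil list reversed, with 2 of 11 positive and a median of -0.65, and -1.09 without the alike libraries. Csf3r was at 17.5, 24.1 and 118 CPM in tumours of rich clones, against 9.01, 20.8 and 44.3 CPM in tumours of poor clones, a log2 difference of 0.98 (SE 0.58) and of 1.36 (SE 0.73) without the alike libraries. Cxcr2 differed by 1.01 (SE 0.57), Il1b by 1.05 (SE 0.74) and Cxcl5 by 1.06 (SE 0.62). Without the alike libraries these were 1.30, 1.28 and 1.33. Single libraries carried much of them: without bulk_6419c1_no1 Cxcr2 was 0.53 and Cxcl5 0.54, and without bulk_7160c5_no1 Il1b was 0.50 and Csf3r 0.54. Retnlg had the opposite sign, at -0.81 (SE 0.63) and -1.51 without the alike libraries, with 39.5 CPM in bulk_6422c5_no1. Without bulk_6422c5_no1, Retnlg was 0.34, Il1b 1.79 and Cxcl5 1.62.

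Ceacam1 was at 27.0, 30.5 and 65.9 CPM in the other tumours of rich clones, against 8.21, 22.9 and 33.1 CPM in those of poor clones. The log2 difference was 0.77 (SE 0.35, unadjusted p = 0.0452), 1.58 (SE 0.55) without the alike libraries and 0.48 without bulk_7160c5_no1. Osbpl3 differed by -0.40 (SE 0.15, unadjusted p = 0.0191) and Ccnb2 by -0.41 (SE 0.15, unadjusted p = 0.0148). Without the alike libraries these were -0.70 and -0.60. Neither was called by edgeR over all genes. The cell cycle list had 1 positive difference of 22 and a median of -0.23, with 3 at an unadjusted p under 0.05 on the lower side, and without the alike libraries 2 of 22 and -0.35. Red blood cell genes had 0 positive differences of 5, with and without the alike libraries, and 1293 CPM of Hbb-bs in bulk_6422c5_no1. Endothelial genes had a median of 0.19 over 13, 0.37 without the alike libraries, and 0 at an unadjusted p under 0.05 in both.

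**Figure D5:**
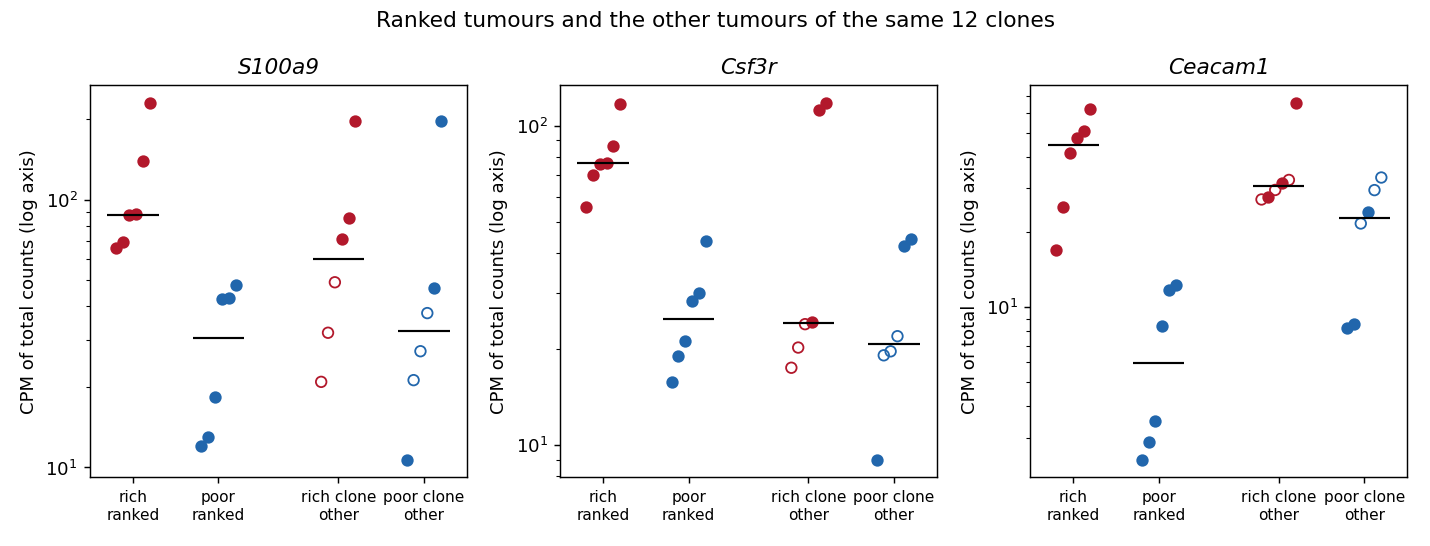
CPM of total counts (log axis) of S100a9, Csf3r and Ceacam1 in the ranked tumours and in the other tumours of the same 12 clones, rich left of poor in each pair; lines are medians and open points the 6 libraries over 65% of the highest liver and heart level. The ranked groups do not overlap, and the groups of other tumours overlap in all 3 panels.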

How the data were processed

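Bulk RNA sequencing libraries of 37 tumours were deposited by the authors as 1 table of raw read counts per gene, whole numbers per the values. STAR, featureCounts and the mm10 build are named per the submitters' processing notes; the sources used here do not give versions, annotation or strand setting, so reads of overlapping genes cannot be told apart. Libraries were made with an NEB kit and sequenced on a NextSeq, per the labels' protocols. Of 39017 gene IDs, 37607 matched GENCODE M21 (GRCm38), which gave coordinates, and 1410 did not. Symbols are those of the deposited table.

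Levels are CPM of total counts, and log2 differences are scaled by TMM. The main test was edgeR 4.0.16 quasi-likelihood (R 4.3.3) on genes passing filterByExpr, with S100a8 left out and Benjamini-Hochberg adjustment at 0.05. SE was taken as the size of the log2 difference divided by the square root of F, an approximation. DESeq2 1.42.0 was an alternative and gave no adjusted p for 395 genes. Fits were checked on simulated data with large changes, the same spread for all genes and groups that no simulated gene had picked. That check does not measure power or error rates in these tumours. Tumours of 1 clone within 1 group were summed before each fit. P-values therefore measure the spread between clones, with 1 tumour per clone in the main comparison.

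The text names 36 preset genes, 10 genes in each direction with the smallest p, because no gene was called, and the member with the smallest p of each of 25 lists. Predicted genes were left out of the first rule. Other list members were named after their values were seen. Of 420 list memberships 419 matched the table. The groups, genes and lists were chosen with earlier results of these data known. Alternatives were scaling, filter, group size, covariates, ranking gene, residual liver RNA and leaving out each tumour. Columns of all 37 samples were mapped by title.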

Additional observations from a re-analysis of the deposited data

Results flagged for a closer look

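In groups of 6, a tumour was singled out where its gap to the nearest other value, as a share of the group's range, exceeded Dixon's critical value. Of 156 groups of values looked at, 38 held such a tumour, and chance flags about 1 in 20 groups where values are normally distributed. CPM values are skewed and the genes share tumours, so the number is not set against that rate.

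Rich tumour bulk_7160c5_no2 held 15 of them, all as the highest of its group. Myeloid genes in this tumour were Csf1r at 498 CPM, Ccr2 at 171 CPM, Arg1 at 435 CPM, Ly6c2 at 3.17 CPM and Themis2 at 40.0 CPM. Lymphoid and antigen presentation genes were Cd3e at 6.74 CPM, Foxp3 at 8.23 CPM, Il7r at 24.4 CPM, Klrk1 at 4.31 CPM, Wdfy4 at 50.1 CPM and H2-Ab1 at 1059.8 CPM. It also held the highest Csf3 at 11.1 CPM, Epcam at 903 CPM, Spint1 at 132 CPM and Clec1b at 3.74 CPM. Its clone is labelled intermediate.

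Among the other rich tumours, bulk_6556c4_no2 had 108 CPM of Cxcl3 and 20.5 CPM of Csf2. Rich tumour bulk_6419c1_no2 had 207 CPM of Lcn2 and 11.3 CPM of Krt4, and bulk_6620c1_no2 had 8.40 CPM of mt-Nd3.

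Poor tumour bulk_6694c2_no2 had high Cxcl2 at 167 CPM, Cxcl3 at 56.3 CPM, Csf2 at 14.1 CPM and Krt14 at 60.9 CPM, and low Plvap at 27.4 CPM. Poor tumour bulk_2838c3_no2 had 1483 CPM of Hbb-bs, 123 CPM of Hba-a2 and 6.10 CPM of Mmp8. Poor tumour bulk_6422c5_no2 had 387 CPM of Mmp9, 3.18 CPM of Krt5 and 39.6 CPM of Pf4. In poor tumour bulk_6421c2_no2 Cd8a was high at 4.1995 CPM, and in bulk_6555c3_no2 Aggf1 was low at 63.6 CPM.

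In the other tumours of the clones, rich clone tumour bulk_6419c1_no1 had 197 CPM of S100a9 and bulk_7160c5_no1 had 65.9 CPM of Ceacam1. Poor clone tumour bulk_6422c5_no1 had 197 CPM of S100a9, 115 CPM of Cxcl5 and 39.5 CPM of Retnlg.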

How the results depend on the processing

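Of rich against poor, edgeR called 0 genes in 9 other settings, DESeq2 called 307, log2 S100a8 as a continuous term 4, and the top 3 against the bottom 3, a setting chosen after seeing the data, 2 (Bmp2 and Hba-a1). Leaving out each tumour gave 0 to 8 calls, with 8 without bulk_2838c3_no2 and 1 (Adcyap1) without bulk_6555c3_no2. In the other tumours of the clones every setting called 0. The cause of these shifts was not tested. Ranking by TMM-scaled S100a8 gave the same groups.

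The named genes kept their direction except as follows. Krt5 was -0.35 with the top 5, -0.17 with the top 8, -0.16 as a continuous term and -0.91 with the top 3. With the top 8, Ngp was -0.74, Cd8a 0.72 and Krt14 -0.34. Mmp9 was -0.089 as a continuous term and -0.27 with the top 3. Ranked by S100a9, Foxp3 was -0.34, Epcam -0.84, Klrk1 -0.10 and H2-Ab1 -0.0050. Without tumours over 10 CPM of Alb, Cxcl1 was -0.50 and Krt14 -0.35. With the top 3, Cd3e was -0.26, C1qa -0.0083, Ccr2 -0.057, Epcam -0.17 and Krt4 -0.21. With log2 liver and heart level as a term, Retnlg in the other tumours was 0.022.

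List medians not given above that moved by over 1.5 times included, ranked by S100a9, 0.28 for platelets and -0.014 for cytotoxic genes. With the top 8 they included 0.43 for mast cells, 0.67 for muscle, 0.30 for fibroblasts, 0.27 for mitochondrial genes and -0.084 for skin genes. With the top 5, the platelet median was 0.32. With the phenotype label as a term, medians were 1.82 for red blood cells, 0.55 for T cells and 0.59 for ductal genes. Without tumours over 10 CPM of Alb, they were 3.78 for red blood cells and 0.33 for interferon response genes. The red blood cell median was 3.93 with the top 3, and the fat median 0.016 without bulk_7160c5_no2.

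Leaving out each tumour, values ranged from -0.11 to 0.93 for Cxcl1, -0.97 to 1.41 for Csf2, -1.02 to 1.02 for Cd8a, -0.10 to 1.25 for Krt5 and -0.42 to 1.17 for Krt14. In the other tumours they ranged from -0.22 to 1.43 for S100a9 and from -1.02 to 0.34 for Retnlg.

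No paired analysis was possible because the groups were formed from S100a8 and the groups share only 1 first number of a clone name, that of bulk_6556c4_no2 and bulk_6556c3_no2. With 6 tumours a group, and genes such as Ly6g and Mpo below the filter, small differences were not detectable. Large differences were not called either, such as 2.55 (SE 0.46, edgeR adjusted p = 0.170) for Ceacam1.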

Other observations

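Some genes outside the lists and the naming rule were picked after their values were seen and are given as values. Olfm4, which encodes a secreted glycoprotein of some neutrophils and of gut epithelium, was at 1.23, 15.7 and 51.4 CPM in rich tumours, against 0.0661, 0.629 and 1.67 CPM in poor tumours. Its log2 difference was 4.58 (SE 0.93, edgeR adjusted p = 0.170), with overlap between the groups. In the other tumours of the clones Olfm4 was at 1.62, 1.97 and 95.5 CPM for rich clones, against 0.639, 1.32 and 4.08 CPM for poor clones. There the log2 difference of 3.55 (unadjusted p = 0.00678) came with groups that overlapped. Ptprc, the pan-leukocyte gene for CD45, was at 66.5, 83.3 and 185 CPM in rich tumours, against 31.9, 44.7 and 54.0 CPM in poor tumours, a difference of 1.10 (SE 0.24) without overlap. Itgam, an integrin of granulocytes and macrophages, also did not overlap, at 101 to 218 CPM in rich tumours, against 73.8 to 91.8 CPM in poor tumours, a difference of 0.83 (SE 0.16). Adcyap1, a neuropeptide gene, was at 0.841 to 2.13 CPM in rich tumours, against 0.0278 to 0.714 CPM in poor tumours.

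Of the tumours with no phenotype label, bulk_6883c1_no1 had 4.69 CPM of S100a9, bulk_6883c4_no1 had 13.3 CPM and bulk_7062c3_no2 had 87.3 CPM.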
